A study of Mus musculus with 9 samples.

Results

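The 5 mouse genes of the glycine receptor (Glra1, Glra2, Glra3, Glra4 and Glrb) and the 3 genes of the GABA rho subunits (Gabrr1, Gabrr2 and Gabrr3) were followed across whole retina of 3 groups of mice. They were taken by gene symbol, and all 8 were found among the 21769 genes listed for each library. All 8 were also among the 14300 genes that passed the filter on low counts. Transcript counts were compared between wild type mice at postnatal day 48, rd10 mice at day 61 and a GFP line (green fluorescent protein), with 3 libraries in each group and 2 retinae in each library. In rd10 mice Pde6b, which encodes a rod phosphodiesterase, is mutated, and rods are lost after birth. The rd10 retinae are labelled degenerated, and those of wild type and GFP mice normal. Day 42 is given for a line written as Gg13, which was read here as the GFP group. What drives GFP in these mice is not given in the sources used here. Age and strain therefore cannot be told apart from degeneration in any comparison with rd10.

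Glycine and GABA are the inhibitory transmitters of the inner retina, released mainly by amacrine cells. Both open chloride channels that are rings of subunits from one superfamily. In the glycine receptor, alpha subunits carry the binding site, and the beta subunit, the product of Glrb, anchors the ring to gephyrin at synapses. The rho subunits form GABA channels of their own, slow to close and long called GABA-C receptors, which are best known from the axon terminals of bipolar cells.

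Library totals ran from 9597635 to 12149448 counts, and levels are given as CPM, counts scaled to library size with TMM factors (trimmed mean of M values). The 28 photoreceptor markers summed to 96884 to 129700 CPM in wild type, 104410 to 116620 in GFP and 2690 to 3522 in rd10. Pde6b itself stood at 3151 ± 506 CPM in wild type and 19.5 ± 12.3 in rd10 (SD, n = 3 libraries each). Lens markers summed to 2028 to 4998 CPM in wild type 2, wild type 3, rd10 2 and GFP 1 and to 5.13 to 56.6 CPM in the other 5 libraries. In GFP 2 and wild type 3, genes with transcripts of at least 5000 bases were low against genes under 2000 bases. The log2 difference from the group mean was -0.68 and -0.37 there, against -0.17 to 0.48 in the other 7 libraries. In bulk retina, fewer cells of a type and less RNA per cell cannot be told apart.

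In rd10 against wild type, 4 of the 8 genes rose and none fell (0) at an adjusted p under 0.05 (edgeR, quasi-likelihood, Benjamini-Hochberg over all genes tested). The genes that rose were Glra1, Glra2, Glrb and Gabrr3, by 1.79-fold to 2.57-fold. Gabrr1 and Gabrr2, the most abundant of the alpha and rho subunit genes, differed by 1.24-fold and 1.26-fold and did not pass. Among all genes tested, 14.5% were called higher in this comparison, 13.9% lower and 28.4% in either direction. The median log2 fold change was 1.06 over the 8 genes and -0.03 over all genes. In 6 of the 8 genes every rd10 library lay above every wild type library, as it did for 26.1% of all genes, and 50.5% of all genes had no overlap in either direction.

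Against GFP, Glra2 and Glrb rose and the other 6 genes did not pass, where 15.2% of all genes were called higher, 15% lower and 30.2% in either direction. The members' median log2 fold change was 0.89, against -0.02 over all genes. For 3 of the 8 genes (Glra1, Glra2 and Glrb) every rd10 library lay above every GFP library, as for 25.1% of all genes (48.2% without overlap in either direction). Both comparisons use the same rd10 libraries, so they are not independent. Between GFP and wild type none of the 8 genes passed (0), at an unadjusted p under 0.05 also 0, and DESeq2 and limma called 0 as well. Of all genes, 0% were called higher there and 0% lower, and 214 of 14300 had an unadjusted p under 0.05. No member had all GFP libraries above wild type (0), as 1.52% of all genes did, or free of overlap in either direction (0), as 3.99% were.

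**Figure D1:**
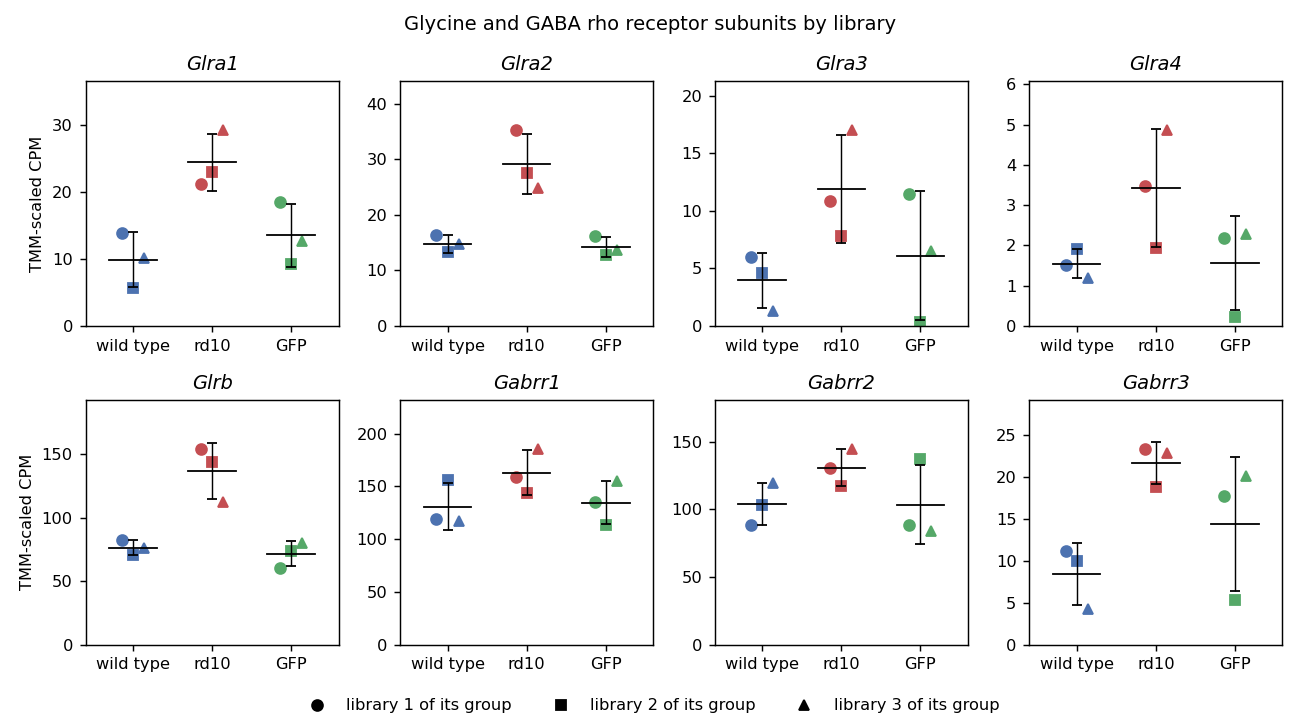
TMM-scaled CPM of each gene (vertical axes from 0, each panel on its own scale) in the 3 libraries of each group, with the group mean as a line and the SD as a bar. Glra1, Glra2 and Glrb are higher in each rd10 library than in any normal library. The libraries of Gabrr1 and Gabrr2 overlap, and Glra3 and Gabrr3 are lowest in wild type 3 and GFP 2.

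Glra2 and Glrb gave the clearest difference. Glra2 encodes an alpha subunit used widely among amacrine cells, and lies on chromosome X at 161566949 to 161764913 (mm9, as for all loci below). Its level was 16.5, 13.3 and 14.7 CPM in wild type, 35.3, 27.6 and 24.8 in rd10, against 16.2, 12.8 and 13.7 in GFP, for libraries 1, 2 and 3 in turn. All rd10 libraries were above all 6 normal ones, with rd10 3 the lowest of the group. The log2 fold change was 0.98 (SE 0.20, adjusted p = 0.00518 by edgeR) against wild type and 1.03 (SE 0.20, adjusted p = 0.00381) against GFP. GFP and wild type differed by -0.05, with a 95% interval from -0.49 to 0.39.

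Glrb (chromosome 3, 80647526 to 80717546) encodes the only beta subunit of the glycine receptor. It was read at 82.3, 70.6 and 76.3 CPM in wild type, 154 in rd10 1, 144 in rd10 2 and 112 in rd10 3, against 60.6, 73.7 and 80.04 in GFP. Again the rd10 libraries lay above the others without overlap, and rd10 3 was again the lowest of its group. Glrb rose by 0.84 on the log2 scale (SE 0.17, adjusted p = 0.00483 by edgeR) against wild type and by 0.94 (SE 0.17, adjusted p = 0.00263) against GFP. The log2 levels of Glra2 and Glrb followed each other over the 9 libraries (Pearson r of 0.92), a description that includes the step between groups.

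With the 4 libraries that held lens transcripts left out, which leaves 1 wild type library, the log2 fold changes against wild type were 0.86 for Glra2 and 0.69 for Glrb and neither passed (adjusted p = 0.265 and adjusted p = 0.281 by edgeR). These lie in ranges over all alternatives from 6.66e-05 to 0.265 and from 4.03e-05 to 0.281. In that fit the genes called over the whole table fell from 4055 to 543, and none of the 8 genes was called (0). Against GFP, Glra2 kept its call there (adjusted p = 0.0433) and Glrb lost it (adjusted p = 0.0727), over ranges from 3.44e-05 to 0.0433 and from 5.62e-06 to 0.0727.

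The promoters of these 2 genes are shown because the genes were the ones called in both comparisons. Each run is the 250 bases before the RefSeq start site, 5′ to 3′ on the strand of the gene (RefSeq, GRCm38.p6), with the minus strand of chrX:165327394-165327643 for Glra2 and of chr3:80913661-80913910 for Glrb. Capitals mark matches to TAATCC, letters bound by the photoreceptor and bipolar factors CRX and OTX2, or to CANNTG, the E-box of basic helix-loop-helix factors, searched on both strands.

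Glra2: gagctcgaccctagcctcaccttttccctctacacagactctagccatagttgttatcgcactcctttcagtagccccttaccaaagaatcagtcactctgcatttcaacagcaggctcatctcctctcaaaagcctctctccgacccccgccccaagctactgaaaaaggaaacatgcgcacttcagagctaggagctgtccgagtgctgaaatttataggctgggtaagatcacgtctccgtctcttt

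Glrb: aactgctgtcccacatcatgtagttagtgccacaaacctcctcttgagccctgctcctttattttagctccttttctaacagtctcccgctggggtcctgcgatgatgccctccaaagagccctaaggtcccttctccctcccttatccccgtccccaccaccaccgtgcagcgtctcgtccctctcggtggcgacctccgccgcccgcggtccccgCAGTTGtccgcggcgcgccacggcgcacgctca

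Glra2 held neither motif in this window, and Glrb held 1 CANNTG and no TAATCC (0). Of 32851 such windows in the RefSeq table, 6.25% held TAATCC and 66.2% held CANNTG. Promoters were found for 7 of the 8 genes, all but Glra1. These matches describe letters in a window and say nothing on binding.

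Glra1 (chromosome 11, 55328315 to 55421292) encodes the alpha subunit of fast glycine receptors, which in the retina sit on OFF cone bipolar terminals, opposite AII amacrine cells, and on some ganglion cells. Its levels were 13.9, 5.67 and 10.1 CPM in wild type, 21.2, 23.01 and 29.3 in rd10, against 18.6, 9.28 and 12.8 in GFP. The 3 rd10 libraries were above all normal ones, with GFP 1 closest and wild type 2 the lowest of the 9. Glra1 rose by 1.31 on the log2 scale (SE 0.34, adjusted p = 0.0161 by edgeR) against wild type. Its call was lost without wild type 2 (1.04, adjusted p = 0.0509) or without rd10 3 (1.18, adjusted p = 0.0611), and the alternatives spanned 0.00139 to 0.298. Against GFP the log2 difference was 0.85 (SE 0.33) with an adjusted p of 0.0742, and it passed in 5 of 20 alternatives, over a range from 0.0212 to 0.212.

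Glra3 (chromosome 8, 58419622 to 58604149), an alpha subunit of amacrine and some ganglion cell synapses, was read with few counts. In wild type the counts were 59, 48 and 13, in rd10 138, 97 and 231, and in GFP 127, 3 and 68. The rd10 libraries lay above all wild type libraries, but GFP 1 had 11.5 CPM, within the rd10 span of 7.80 to 17.03 CPM. Wild type 3, at 1.30 CPM, and GFP 2, at 0.34 CPM, were the lowest. The log2 difference was 1.59 (95% interval from -0.17 to 3.34, adjusted p = 0.156 by edgeR) against wild type and 0.95 (-0.76 to 2.65, adjusted p = 0.368) against GFP. Its longest annotated transcript has 6508 bases, the longest among the 8 genes. With the dependence on transcript length taken out, the difference was 1.42 against wild type (adjusted p = 0.129) and 0.87 against GFP (adjusted p = 0.319) and did not pass. Without wild type 3 and GFP 2 the difference from wild type was 1.17 and passed (adjusted p = 0.0361). It also passed without GFP 2 alone (1.61, adjusted p = 0.0181) and with only the 2 groups in the fit (1.59, adjusted p = 0.0218), over a range from 0.0181 to 0.573. Without wild type 3 and GFP 2 the difference from GFP was 0.40 and did not pass (adjusted p = 0.412, over a range from 0.134 to 0.657).

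Glra4 (chromosome X, 133292213 to 133314260), the remaining alpha subunit gene, was close to the limit of these libraries. Its counts were 15, 20 and 12 in wild type, 44, 24 and 66 in rd10, against 24, 2 and 24 in GFP. The rd10 libraries were just above wild type, rd10 2 at 1.93 CPM and wild type 2 at 1.92, and overlapped GFP. Like Glra3, Glra4 was lowest in its group in wild type 3, at 1.20 CPM, and in GFP 2, at 0.23 CPM, and its longest transcript, with 1831 bases, is the shortest among the 8 genes. Log2 differences of 1.14 against wild type and 1.10 against GFP did not pass (adjusted p = 0.193 and adjusted p = 0.200 by edgeR). BC065397, annotated on the opposite strand across this locus, had 86 to 108 counts in wild type, 50 to 63 in rd10 and 81 to 125 in GFP. Since the strand setting of the counting is not given in the sources used here, reads of these overlapping genes cannot be told apart.

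Gabrr1 and Gabrr2 encode the rho subunits of bipolar cell terminals, where they carry the sustained part of amacrine feedback. They lie head to tail on chromosome 4, Gabrr2 at 33150087 to 33182840 and Gabrr1 at 33219531 to 33250563, with a gap of 36.7 kb and no other listed gene between them (0). Gabrr1 was read at 119, 156 and 117 CPM in wild type, 159, 144 and 186 in rd10, against 136, 114 and 155 in GFP. Wild type 2 and GFP 3 exceeded rd10 2, so the groups overlapped. The log2 difference was 0.32 (95% interval from -0.08 to 0.71, adjusted p = 0.208 by edgeR) against wild type and 0.27 (-0.12 to 0.67, adjusted p = 0.262) against GFP.

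Gabrr2 was read at 88.3, 103 and 119 CPM in wild type, 130.4, 117 and 145 in rd10, against 88.6, 137 and 84.2 in GFP. GFP 2 was above rd10 1 and rd10 2, and wild type 3 above rd10 2, the reverse of their place for Glra3. The longest annotated transcript of Gabrr2 has 1933 bases, the second shortest after that of Glra4 with 1831. The log2 difference was 0.34 against both wild type (adjusted p = 0.240 by edgeR) and GFP (adjusted p = 0.224). With the dependence on transcript length taken out, Gabrr2 passed, at 0.48 (adjusted p = 0.0267) and 0.46 (adjusted p = 0.0300). It also passed without wild type 3 and GFP 2, with 0.45 (adjusted p = 0.0420) and 0.59 (adjusted p = 0.0132), and against GFP without GFP 2 alone, with 0.60 (adjusted p = 0.0203). The ranges over alternatives were 0.0267 to 0.421 against wild type and 0.0132 to 0.475 against GFP. With library totals in place of TMM factors, which moved the median of all genes to 0.25 against wild type and 0.31 against GFP, Gabrr1 gave 0.61 and 0.60 and Gabrr2 0.62 and 0.67, and both passed. Relative to those medians Gabrr1 was 0.35 and 0.29 higher, and Gabrr2 0.36 in both.

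The promoters of these neighbours are printed because the genes differed by nearly the same amount between groups. Their log2 levels over the 9 libraries had a Pearson r of 0.18. That r includes wild type 3 and GFP 2, where long transcripts were low. In these libraries Gabrr2 was the highest of its group (119 and 137 CPM) and Gabrr1 the lowest (117 and 114 CPM). The cause of the low r was not tested. The windows and capitals are as above, on the plus strand, chr4:33132306-33132555 for Gabrr1 and chr4:33062862-33063111 for Gabrr2.

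Gabrr1: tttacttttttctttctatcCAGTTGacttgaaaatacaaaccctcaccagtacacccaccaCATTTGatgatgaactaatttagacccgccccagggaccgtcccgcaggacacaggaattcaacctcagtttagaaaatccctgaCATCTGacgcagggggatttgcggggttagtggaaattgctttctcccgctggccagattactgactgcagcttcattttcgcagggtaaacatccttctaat

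Gabrr2: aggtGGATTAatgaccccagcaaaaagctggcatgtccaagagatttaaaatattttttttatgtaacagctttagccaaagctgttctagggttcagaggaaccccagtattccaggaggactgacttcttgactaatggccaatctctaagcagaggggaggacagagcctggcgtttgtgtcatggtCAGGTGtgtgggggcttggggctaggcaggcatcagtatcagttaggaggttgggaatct

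The Gabrr1 window held 3 CANNTG matches and no TAATCC (0). The Gabrr2 window held 1 match to TAATCC, read on the other strand as GGATTA, and 1 CANNTG, and no matches overlapped (0).

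Gabrr3 (chromosome 16, 59407208 to 59461565), the third rho gene, was much less abundant than the other two. Its levels were 11.1, 9.90 and 4.21 CPM in wild type, 23.4, 18.7 and 22.8 in rd10, against 17.8, 5.27 and 20.1 in GFP. The rd10 libraries were above all of wild type, while GFP 3 exceeded rd10 2 and GFP 2 was close to wild type 3. Gabrr3 rose by 1.36 on the log2 scale (SE 0.46, adjusted p = 0.0456 by edgeR) against wild type, the largest fold change among the 4 genes called, and the weakest call. The call was lost without any 1 of the 6 rd10 and wild type libraries, with 1.04 to 1.65 and adjusted p from 0.0526 to 0.133, and with the replicate number as a block (1.35, adjusted p = 0.0597). Over all alternatives its adjusted p ranged from 0.00334 to 0.437. Against GFP the difference was 0.58 (95% interval from -0.39 to 1.56, adjusted p = 0.333). It fell to 0.19 without GFP 2 (adjusted p = 0.671 by edgeR) and to 0.19 without wild type 3 and GFP 2 (adjusted p = 0.466). In the latter fit GFP was 0.85 above wild type, without a call. The longest annotated transcript of Gabrr3 has 4271 bases.

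**Figure D2:**
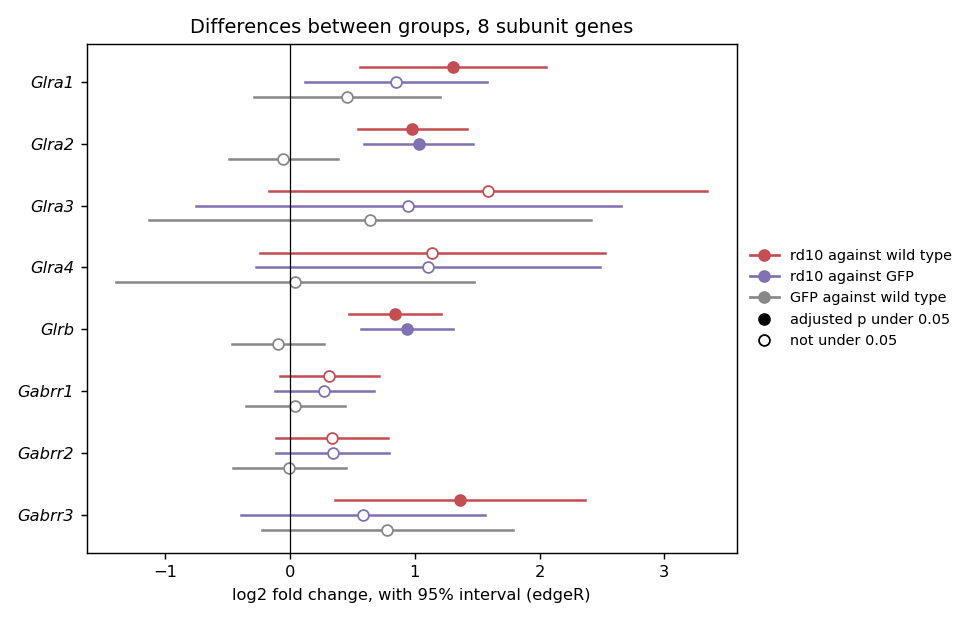
Log2 fold change (horizontal axis) of each gene in the 3 comparisons, with 95% intervals as lines and filled points for an adjusted p under 0.05 by edgeR. Glra2 and Glrb are filled in both comparisons with rd10, Gabrr1 and Gabrr2 are open near 0.3 in both, and the intervals of Glra3 and Glra4 are the widest.

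Levels can be set between genes per kilobase of coding sequence, which runs from 1359 to 1491 bases in these genes. In wild type the order was Gabrr1 (90.8 ± 15.3 CPM per kilobase, SD, n = 3), Gabrr2 (70.4 ± 10.5), Glrb (51.2 ± 3.91), Glra2 (10.9 ± 1.17), Glra1 (7.21 ± 3.01), Gabrr3 (6.03 ± 2.64), Glra3 (2.74 ± 1.66) and Glra4 (1.13 ± 0.26). The first 3 did not overlap their next neighbour over the libraries, and the others did. In rd10, Glrb (91.8 ± 14.8) stood between Gabrr1 (113 ± 14.8) and Gabrr2 (88.8 ± 9.46), and these overlapped in turn. Glra2 (21.5 ± 4.01), Glra1 (17.8 ± 3.09) and Gabrr3 (15.5 ± 1.81) followed, each overlapping the next, and Glra3 (8.25 ± 3.26) and Glra4 (2.50 ± 1.07) came last without overlap. In GFP the top 4 places were those of wild type, with Gabrr1 (93.3 ± 14.3) and Gabrr2 (70.05 ± 19.8) overlapping. Untranslated parts also give reads, so this scale is approximate.

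The make-up of each receptor was read as shares of counts per coding length within a library, which do not depend on library scaling. The shares were not corrected for the tilt with transcript length. Glra3 held 22.8% of the alpha sum in GFP 1 and 1.43% in GFP 2. Among alpha subunits, Glra2 held 50.4% ± 5.51 in wild type, 43.3% ± 9.002 in rd10 and 43.5% ± 11.9 in GFP (SD, n = 3). Glra1 held 32.03% ± 8.40, 35.6% ± 4.96 and 38.6% ± 2.16, Glra3 12.3% ± 6.82, 16.2% ± 4.77 and 13.9% ± 11.1, and Glra4 5.33% ± 1.96, 4.87% ± 1.63 and 4.02% ± 2.80, in the same order. Gabrr1 held 54.1% ± 4.66, 51.9% ± 0.90 and 53.7% ± 7.86 of the rho sum. Gabrr3 held 3.65% ± 1.74, 7.15% ± 0.56 and 5.95% ± 3.29 of it, given as a description. The Glrb level was above the summed alpha level by 1.24, 0.87 and 0.95 on the log2 scale. For the 4 alpha shares, the Gabrr1 share and the Glrb ratio, 6 measures in all, none passed an exact two-sided permutation test of the 3 rd10 against the 6 normal libraries (0 with an unadjusted p under 0.05, p from 0.524 to 1.0, adjusted p = 1.0). The smallest p this test can give is 0.0238, and 3 libraries against 3 cannot go below 0.1.

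The summed alpha level stood lower than the summed rho level in every library. Their log2 ratio was -2.45, -3.33 and -3.05 in wild type, -2.07, -2.13 and -2.15 in rd10, against -2.25, -3.40 and -2.81 in GFP. The 3 rd10 libraries were close together and above all 6 normal libraries, GFP 1 being the closest. This ratio was computed after the values of the genes were known and is given as a description. Like the shares, it was not corrected for the tilt with transcript length, and the part of that tilt in it was not tested.

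**Figure D3:**
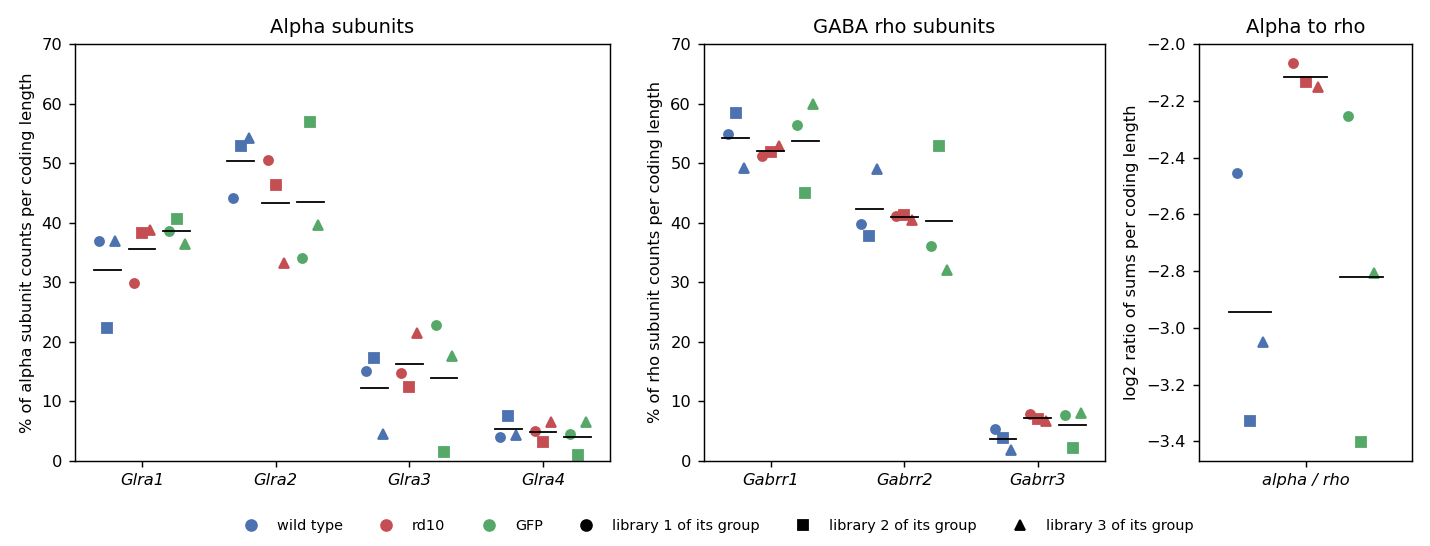
Left and middle, percent of the alpha and of the rho subunit counts per coding length held by each gene, by group (colour) and library (symbol), with group means as lines. Right, log2 ratio of the alpha to the rho sum, on an axis that does not start at 0: the rd10 shares overlap those of the 6 normal libraries, and the ratio is -2.07 to -2.15 in rd10 against -2.25 to -3.40 in the normal libraries.

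Many markers of the neurons that use these receptors were also higher in rd10, but not all. Of all genes tested, 14.5% were called higher against wild type and 13.9% lower. Against wild type, 7 of 14 ON bipolar markers rose and none fell (0), with a median log2 fold change of 0.68. Among 13 tested amacrine markers 8 rose and none fell (0), with a median of 0.59. Below 0 without passing were Lrit3 (-1.40) and Sebox (-0.24) of the ON bipolar list and Th (-0.60) of the amacrine list. Of 8 OFF bipolar markers 5 rose and none fell (0), with a median of 0.99, and of 10 ganglion cell markers 4 rose and none fell (0), with a median of 0.56. The summed levels went from 1502 to 1817 CPM in wild type to 2493 to 3042 in rd10 for the ON bipolar list, and from 1449 to 1485 to 2072 to 2142 for the amacrine list. For OFF bipolar markers the sums were 282 to 349.5 CPM in wild type, 287 to 355 in GFP and 541 to 604 in rd10, and for ganglion cell markers 1090 to 1274, 1119 to 1204 and 1562 to 1766 in the same order. Of the amacrine list, Ptf1a, a factor of amacrine cell development named here for its value, had no count in any rd10 or GFP library. Summed Muller glia markers went from 5210 to 6706 up to 10813 to 11471 CPM, and microglia markers from 59.04 to 72.2 up to 189 to 221 CPM, and the part of OFF bipolar, ganglion cell, Muller glia and microglia transcripts in the results was not tested. Each subunit gene was then set against the mean log2 level of the ON bipolar and of the amacrine list in the same library.

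Relative to ON bipolar markers, Gabrr1 was 0.24 lower on the log2 scale in rd10 than in the 6 normal libraries (0.37 ± 0.07 in rd10, 0.61 ± 0.17 in normal retina, SD, n = 3 and n = 6, exact permutation p = 0.0476, adjusted p = 0.272). The Gabrr1 values overlapped, with rd10 3 (0.45) above wild type 1 (0.40). Gabrr2 was 0.18 lower (exact permutation p = 0.548, adjusted p = 0.548). That direction rested on wild type 3 (0.66) and GFP 2 (0.75), and without these libraries Gabrr2 was 0.045 higher in rd10. Relative to amacrine markers, Glra2 was 0.44 higher (-0.69 ± 0.28 in rd10, -1.13 ± 0.11 in normal retina, exact permutation p = 0.0238, the smallest possible, adjusted p = 0.272), with all 3 rd10 libraries above all 6 others. Glrb was 0.35 higher against this list and 0.34 higher against the ON bipolar list (exact permutation p = 0.119 for both, adjusted p = 0.272). For Glra1 the differences were 0.57 against the amacrine list (exact permutation p = 0.0952, adjusted p = 0.272) and 0.56 against the ON bipolar list (exact permutation p = 0.0714, adjusted p = 0.272). Against the ON bipolar list Glra2 was 0.43 higher, with overlap (exact permutation p = 0.0714, adjusted p = 0.272). Against the amacrine list Gabrr1 was 0.23 lower (exact permutation p = 0.143, adjusted p = 0.286). Gabrr3 was 0.55 higher against the ON bipolar list (exact permutation p = 0.286) and 0.56 against the amacrine list (exact permutation p = 0.333). These differences also rested on wild type 3 and GFP 2, and fell to 0.12 and 0.084 without them. Against the ON bipolar list, GFP 1 (-2.33) and GFP 3 (-2.09) lay above every rd10 library (-2.57 to -2.41). Glra3 was 1.02 and 1.03 higher against the ON bipolar and amacrine lists, with overlap (exact permutation p = 0.214 and p = 0.262). Without wild type 3 and GFP 2 it was 0.23 and 0.20 higher. Glra4 was 0.44 and 0.45 higher, with overlap (exact permutation p = 0.333 and p = 0.357). Over the 16 tests none passed after Benjamini-Hochberg adjustment (0). With 3 libraries against 6, a single gene at the smallest possible p cannot pass over that many tests, so these values are a description and do not show that the genes moved with the lists.

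**Figure D4:**
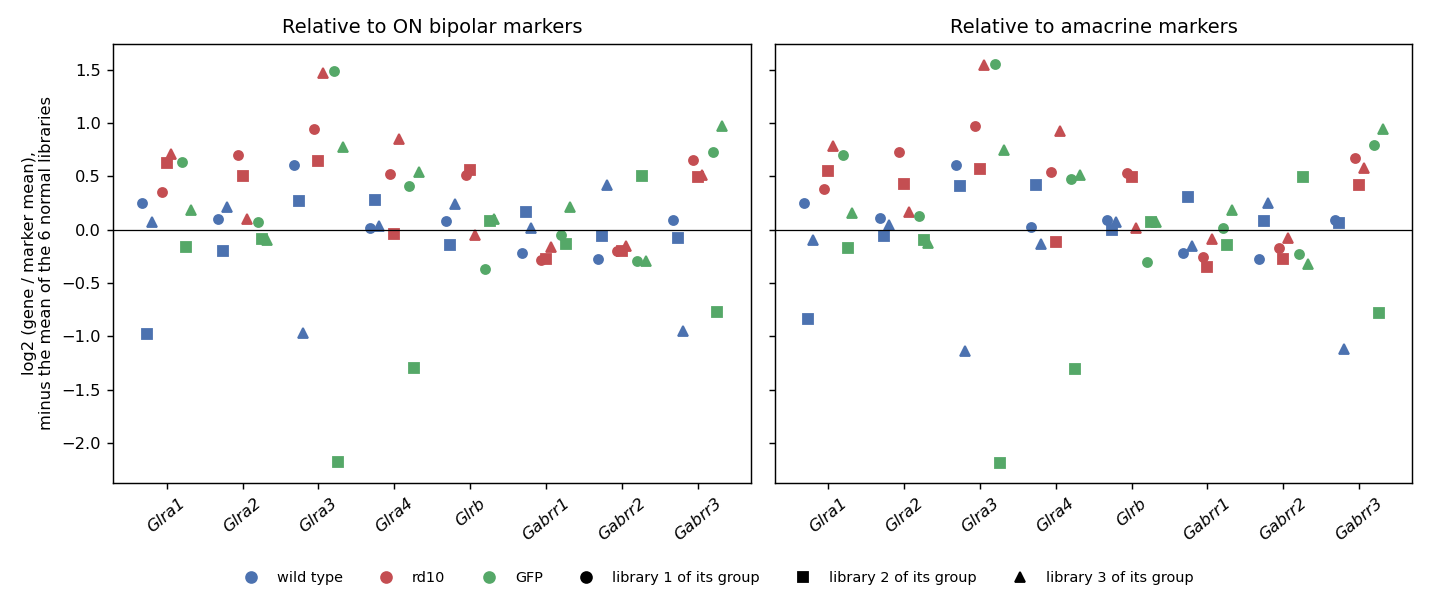
Log2 level of each gene against the mean log2 level of 14 ON bipolar markers (left) or 14 amacrine markers (right) in the same library, shown as the distance from the mean of the 6 normal libraries (line at 0). The rd10 libraries lie slightly below 0 for Gabrr1 and Gabrr2 and above it for Glra1, Glra2, Glra3 and Gabrr3. GFP 2 and wild type 3 are far below 0 for Glra3 and Gabrr3 and are the highest for Gabrr2.

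The partners of these receptors were counted from lists of other genes. Gad1, Gad2, Slc32a1, Slc6a9 and Slc6a5 of the first list are also on the amacrine marker list. The counts of those lists are therefore not separate. Of 16 genes for the synthesis, transport and breakdown of glycine and GABA, 9 rose, 1 fell and 6 did not pass in rd10 against wild type, with a median log2 fold change of 0.72. Slc32a1, the vesicle transporter of both transmitters, rose 1.64-fold. Slc6a9, the glycine transporter of glycinergic amacrine cells, rose 1.51-fold from 325 ± 14.5 to 491 ± 33.2 CPM (SD, n = 3). Slc6a5, the other glycine transporter, went from 5.53 ± 2.72 to 14.3 ± 4.68 CPM and did not pass (adjusted p = 0.0987 by edgeR). Gldc, of the glycine cleavage system, rose 2.32-fold. The gene that fell was Dld, a shared dehydrogenase subunit chosen here after seeing its value, at -0.52 on the log2 scale (adjusted p = 0.0447 by edgeR). Against GFP, 10 of the 16 rose and 1 fell. Of all genes, 14.5% were called higher and 13.9% lower against wild type, and 15.2% and 15% against GFP.

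Against wild type, 4 of 11 genes of the inhibitory postsynaptic scaffold rose, 1 fell and 6 did not pass, with a median of 0.28. Gphn, which encodes the gephyrin that holds Glrb at synapses, was at 95.2 ± 5.33 CPM in normal wild type retina against 107 ± 6.23 in rd10 (SD, n = 3) and did not pass (log2 difference 0.17, adjusted p = 0.396 by edgeR). Iqsec3, which encodes an exchange factor of inhibitory synapses, rose 1.80-fold. Dynll1, a dynein light chain that binds gephyrin among many other partners, was 2.42-fold lower. Against GFP, 2 of the 11 rose and 1 fell. The shares of all genes called higher and lower were 14.5% and 13.9% against wild type and 15.2% and 15% against GFP.

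Of 7 chloride cotransporter genes and their kinases, none rose (0) and 1 fell in each of the 2 comparisons with rd10. The median was 0.07 against wild type. Over all genes, 14.5% were called higher and 13.9% lower against wild type, and 15.2% and 15% against GFP. The counts of this list were not tested against those shares. Slc12a5, the cotransporter that keeps chloride low in neurons, had a log2 difference of 0.52 (adjusted p = 0.0792 by edgeR), Slc12a2, which loads chloride, 0.44 (adjusted p = 0.188) and Slc12a7 0.52 (adjusted p = 0.121). The gene that fell was Stk39, a kinase that acts on these cotransporters, from 90.7 ± 8.02 to 53.6 ± 2.26 CPM (adjusted p = 0.00826). Against wild type, 7 of 14 tested GABA-A and GABA-B subunit genes rose and none fell (0), with a median of 0.87. Between GFP and wild type none of the genes on these 4 lists passed (0).

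The genes whose levels ran most like each subunit over the 9 libraries were named by Pearson correlation of log2 CPM among 11711 genes with a mean of at least 5 CPM (11712 for Glra4). They were Clmn (r of 0.974) and Zmynd11 (0.973) for Glra1, Slc22a15 (0.988) and Fut8 (0.979) for Glra2, Il6st (0.995) and Dag1 (0.991) for Glra3, and Fam125b (0.994) and Adap1 (0.989) for Glra4. For Glrb they were Fgf12 (0.98) and Chpt1 (0.98), for Gabrr1 Islr2 (0.97) and Rab11fip5 (0.96), for Gabrr2 Syt5 (0.97) and Mpnd (0.96), and for Gabrr3 Serinc5 (0.98) and Gdf11 (0.97). No gene was shared between these pairs. The 9 points share their groups, libraries and the tilt with transcript length, and the highest of so many correlations is high by selection. Among the members, Glra3 had an r of 0.93 with Glra4 and 0.92 with Gabrr3, all 3 low in GFP 2, while Gabrr2 had an r of -0.19 with Glra3.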

How the data were processed

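Polyadenylated RNA of 9 whole-retina samples was sequenced from libraries primed with random hexamers, per the labels. The deposited values are raw counts per gene, 1 file per library, on mouse build mm9 per the submitters' processing notes. The aligner, counter, annotation and strand setting are not given in the sources used here. Samples were grouped by their titles, and the series' design text calls the replicates biological.

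Genes were kept by filterByExpr (minimum count 10, minimum total 15), scaled by TMM and fitted in 1 edgeR 4.0.16 model (R 4.3.3) with a mean per group. Quasi-likelihood tests were adjusted over 14300 genes. The procedure was tested on simulated data. Intervals are 95%, from the fold change, its F statistic and degrees of freedom. Shares and ratios to marker lists (pseudocount 0.5) were tested by exact permutation. Coding and transcript lengths came from GENCODE M21, promoters from RefSeq. Loci have 1 added to the deposited start. Alternatives used DESeq2 1.42.0, limma 3.58.1, other scalings, filters and sets of libraries.

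The genes named were the 8 members, 7 fixed partners, up to 2 further genes per list of partners with the smallest adjusted p, and the 2 genes most correlated with each member. Some of these partners are not reported here. The members and lists were chosen with earlier results of these data known. Map1b, Wnk3, Tfap2a, Tfap2b and Septin4 of these lists were not analysed here. All 9 libraries were counted as separate samples because the design text calls the replicates biological. Chi-square per degree of freedom between replicates ran from 13.05 to 76.1. This value also rises with differences in preparation and cannot show that samples are independent.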

Additional observations from a re-analysis of the deposited data

How the results depend on the processing

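All 8 genes were higher in rd10 than in wild type and than in GFP in each of 20 alternatives. The number called against wild type, 4 as reported, was 2 to 5 when single libraries were left out (2 without wild type 2 or rd10 3), 6 without wild type 3 and GFP 2 and 0 without the 4 libraries with lens transcripts. Against GFP it was 2 as reported, 2 to 3 with single libraries left out, 5 with library totals and 1 without the lens libraries. The calls over all genes moved too. Against wild type they were 4055 of 14300 as reported, 2810 of 14489 without wild type 2 and 2540 of 14437 without rd10 3. They were 4693 of 14447 without wild type 3 and GFP 2. With single libraries left out they ran from 2455 to 5421 against wild type and from 2603 to 4404 against GFP. Library totals also gave 6 members called against wild type. Library totals moved the split of all genes called against wild type from 2067 higher and 1988 lower to 3603 and 1079, and against GFP from 2174 and 2138 to 4040 and 1055. With the replicate block, 3 of the 8 genes were called in each comparison with rd10. Of all 14300 genes, 3606 were called with the block against wild type and 3908 against GFP. Same-numbered libraries had correlations of their deviations from -0.372 to 0.357, not every library correlated best with its own number, and the numbers were not read as pairs. The leave-out of the lens libraries, the lengths of coding transcripts and the leave-out of wild type 3 and GFP 2 for shares and marker ratios were chosen after seeing the data.

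GFP against wild type changed sign, without any call, in 28 of 160 values. Glra1 gave -0.34, Glra3 -0.77, Glra4 -0.23 and Gabrr2 0.32 without the lens libraries. Limma gave -0.032 for Glra3 and -0.35 for Glra4, the replicate block -0.23 for Glra4, and the pair of libraries left out 0.012 for Glra2. Gabrr2 gave 0.0089 with RLE factors, 0.0087 with DESeq2, 0.0045 with no filter and 0.019 with the length trend removed. With single libraries left out, Glra2 ran from -0.15 to 0.047, Glra3 from -0.17 to 1.21, Glra4 from -0.30 to 0.55, Glrb from -0.18 to 0.016, Gabrr1 from -0.057 to 0.19 and Gabrr2 from -0.24 to 0.13.

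The rd10 minus normal share ran with single libraries left out from -2.25 to 3.20 percentage points for Glra1, -7.18 to 1.45 for Glra2 and -0.61 to 1.02 for Glra4. Without wild type 3 and GFP 2 it was 0.71 for Glra2, -2.00 for Glra3 and -0.80 for Glra4, and Gabrr2 relative to ON bipolar and amacrine markers was 0.045 and 0.0083. The cause of these changes was not tested. Counts of 2 to 66 for Glra4 and 3 to 231 for Glra3 limit both genes.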
